A study of Mus musculus with 10 samples.

Results

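Glycolytic enzymes, glucose and lactate transporters, and genes of the hypoxia-inducible factor (HIF) pathway were examined in mouse bone marrow derived macrophages, the primary macrophages grown from marrow cells. The 38 genes were chosen by name: 24 belong to glycolysis (17 enzymes, 5 transporters and 2 enzymes that set the level of fructose 2,6-bisphosphate) and 14 to the HIF pathway (5 that encode HIF subunits or control them, and 9 HIF targets). All 38 were found by symbol among the 45318 identifiers listed, and all 38 passed the filter on low values that left 13171 genes for testing. Their choice used no measured value, but it was made with earlier results of these data known.

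Glycolysis turns glucose taken up from outside the cell into pyruvate, and lactate dehydrogenase can turn pyruvate into lactate, which monocarboxylate transporters carry out. HIF is a transcription factor made of an oxygen-labile alpha subunit and a constant partner. In oxygen, prolyl hydroxylases mark the alpha subunit for the VHL ubiquitin ligase, and without oxygen, or in macrophages that sense microbial products, HIF can accumulate and raise many glycolytic genes. Macrophages activated through Toll-like receptors are known for a shift towards glycolysis.

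The libraries came from C57BL/6 mice, and each of the 5 groups had 2. Untreated cells carried the label WT or Tlr4 -/- (KO below), where Tlr4 encodes the receptor for bacterial lipopolysaccharide. A medium holding 5% FBS (fetal bovine serum) plus 2% BSA (bovine serum albumin), given for 6 h to cells of both labels, is called the control medium. The fifth group was cells labelled KO and pre-treated with Poly(I:C) in their medium. Poly(I:C) is an artificial double-stranded RNA that receptors other than TLR4 sense. Its time, its dose and whether FBS and BSA were present are not stated in the labels, and no WT library with Poly(I:C) was analysed here. The labels give no medium or time for untreated cells either, so each difference from untreated cells covers everything in which the cultures differed. Whether the 2 libraries of a group are separate cultures or mice is not stated in the labels, and the p-values therefore reflect only how far these libraries differ, which may be technical.

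Deposited totals were 25.2 to 26 M units per library for untreated cells, 42 and 41.1 M for WT control medium, 25.7 and 26.7 M for KO control medium, and 47.5 and 51.7 M for Poly(I:C). Levels below are in CPM, each deposited value as a share of its library's total, corrected by a TMM factor, which balances libraries by their typical gene. The WT control medium and Poly(I:C) libraries stood apart from the other 6 along the first principal component, which held 83.5% of the variance, at 71.7 to 106 against -69.2 to -47.3. Tlr4 itself was read in every library, at 60.2 and 68.8 CPM in untreated WT, 44.3 and 44.9 in untreated KO, 32.2 and 38.6 in WT control medium, 30.8 and 34.6 in KO control medium, and 47.9 and 64.7 after Poly(I:C). The labels do not say which part of the gene the allele lacks, so these values do not check the labels. All 7 macrophage markers listed were measured, with a summed level of 23300 to 27500 CPM in every group. Lyz2 alone made up 14500 to 19100 CPM, so the sum says little about the other markers, which moved both ways. Fcgr1 went from 218 and 235 CPM in untreated WT to 983 and 1080 in WT control medium. Mertk went from 82.3 and 94.5 CPM to 38 and 58.4. In bulk RNA, fewer cells of a type and less RNA per cell cannot be told apart.

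Most of the 38 genes were higher in WT cells after the control medium and in KO cells after Poly(I:C) than in untreated cells of the same label, and few were higher in KO cells after the control medium. In WT control medium the 5 largest rises were those of Slc2a6, Adm, Slc2a1, Pfkfb3 and Hk1. Slc2a6 and Slc2a1 belong to the glucose transporter family, Adm encodes a hormone precursor, Pfkfb3 a phosphofructokinase-2 and Hk1 a hexokinase. The same 5 genes had the largest rises after Poly(I:C) against untreated cells. A minority fell, among them Pfkm, Slc2a3, Epas1 and Vegfa, the gene of the main vessel growth factor. Differences are on the log2(CPM + 0.1) scale with their standard error (SE), and a gene was called higher or lower at an adjusted p under 0.05 in limma, a linear model that pools the spread over genes.

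In WT cells, 29 members were higher after the control medium, 7 were lower and 2 did not pass, beside 65.9% of all genes tested that passed (32.8% higher and 33.1% lower). The median difference of the members was 0.73, against -0.01 for all genes. Among glycolysis genes 18 were higher and 5 lower, and among HIF pathway genes 11 were higher and 2 lower. The count of 29 became 18 when libraries were scaled by their totals alone, a setting under which the median of all genes itself was at -0.52. The libraries with the larger totals also had the lower TMM factors. Under each of 4 scalings tried, 29 of the 38 members lay above the median of all genes. Scaling moves all genes of a comparison by nearly the same amount, so this count could hardly change and is no separate check of the calls.

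In KO cells the same medium left 6 members higher, 8 lower and 24 that did not pass, beside 19.9% of all genes passing (10.9% higher and 9.06% lower). The median of the members was -0.11, against 0.00 for all genes. Without any 1 of the 4 libraries, 3 members were called higher, and 4 to 6 were called lower. The difference between the 2 responses, tested as the interaction of genotype label and medium, was below 0 for 29 members and above 0 for 6, beside 45.9% of all genes that passed (23.6% below and 22.3% above). Under the scaling by totals alone 19 members were called below 0. The 6 above 0 were Pfkm, Ldhb, Pfkfb4, Slc2a3, Epas1 and Ndrg1, and the count was 3 to 5 with any 1 library left out, lowest without the second untreated WT library or either KO control medium library.

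Poly(I:C) in KO cells left 26 members higher than in untreated KO cells and 10 lower, beside 71.8% of all genes that passed (35% higher and 36.9% lower). Against KO cells in the control medium, 26 were higher and 8 lower, beside 69.3% of all genes (33.1% higher and 36.3% lower). These comparisons share the Poly(I:C) libraries. Scaled by totals alone, 13 members were higher and 19 lower than in untreated cells, while the median of all genes lay at -0.77. Against that median, 27 members were above and 11 below under each of the 4 scalings, which follows from the shift of all genes and is no separate check. A sign that turns with totals alone, given below gene by gene, comes with that shift. The distances from the median given there nearly repeat the TMM differences, so they do not decide between the scalings. The Poly(I:C) response and the WT control medium response share no library: all 26 members higher in the first were among the 29 higher in the second (89.7% of the 29), and the 7 lower in the second made up 70% of the 10 lower in the first. Over all genes tested, 3850 genes were higher in both, which is 89% of the genes higher in WT cells and 83.6% of those higher after Poly(I:C). The 3951 genes lower in both were 90.7% and 81.4%.

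Whether the libraries of a pair of groups overlap was also counted, without a model. Both WT control medium libraries lay above both untreated WT libraries for 29 members and below them for 8, beside 40.6% and 41.6% of all genes. In KO control medium 9 lay above and 21 below the untreated KO libraries, beside 31.9% and 31.2%. After Poly(I:C) 26 lay above and 10 below untreated KO (41.7% and 44.1% of all genes), and 27 above and 10 below KO control medium (40.5% and 44.7%). Between the labels, 8 members were above and 30 below in control medium (42.9% and 39.2%), and 5 above and 17 below in untreated cells (18.4% and 17.5%).

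**Figure D1:**
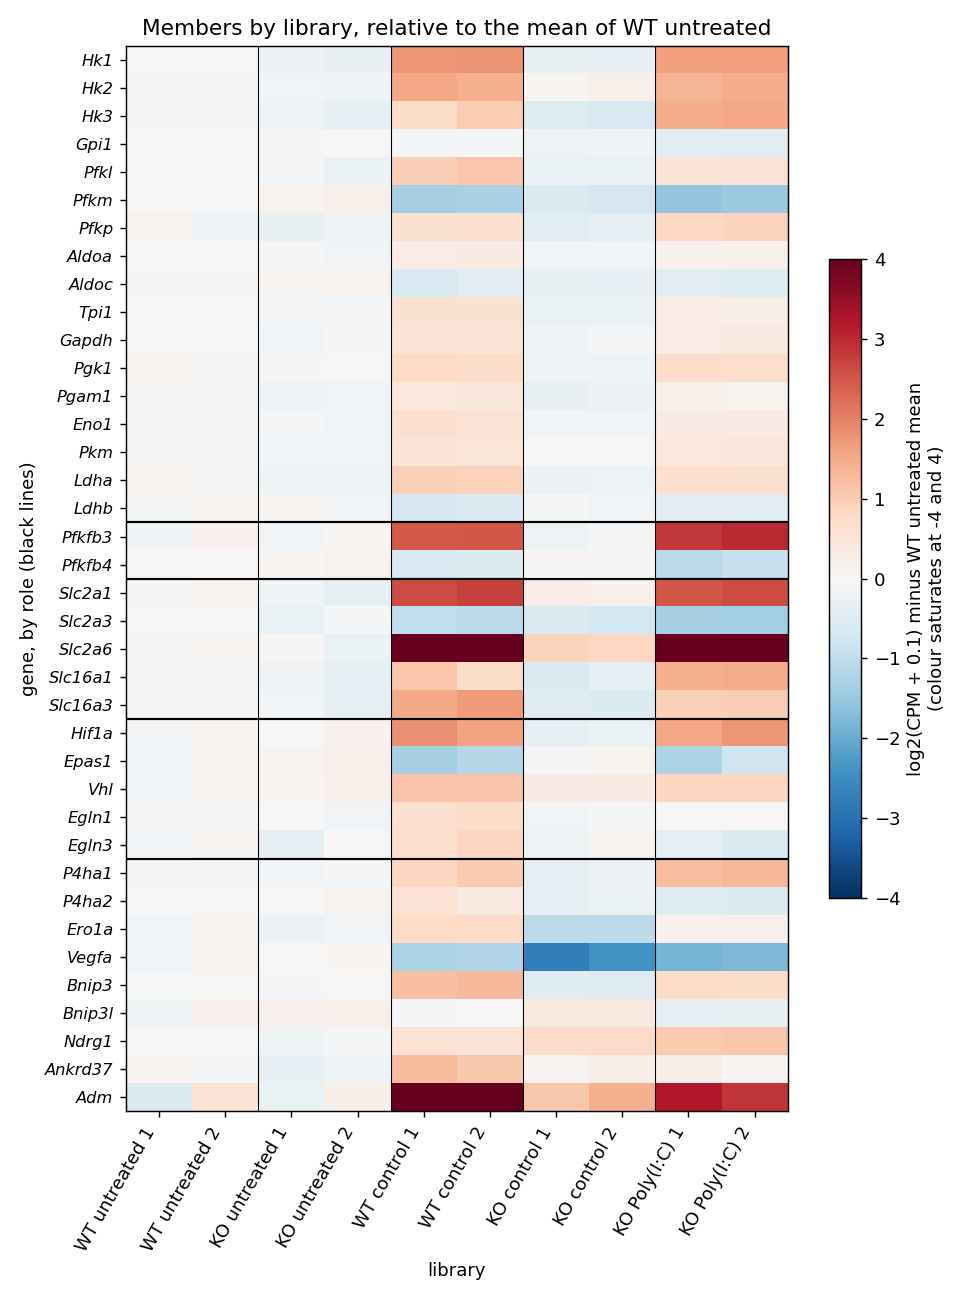
Each member (rows, grouped by role with black lines) in each of the 10 libraries (columns), as log2(CPM + 0.1) minus the mean of the untreated WT libraries, with TMM scaling; colour saturates at -4 and 4. The WT control medium and Poly(I:C) columns are red for Slc2a1, Slc2a6, Pfkfb3, Hk1, Hk2, Hk3, Hif1a and Adm and blue for Pfkm, Slc2a3 and Vegfa, while the KO control medium columns stay pale except for Vegfa, which is darkest blue there.

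In untreated cells, 0 of the 38 members differed between the labels in limma, beside 0.167% of all genes (22 genes). At an unadjusted p under 0.05 there were 5, all lower in KO cells (Hk1, Hk3, Pfkp, Slc2a1 and Slc16a3), and the count stayed at 0 under each other setting tried. The differences ranged from -0.29 (Hk3) to 0.20 (Bnip3l). After the control medium, 29 members were lower in KO than in WT cells and 7 were higher, beside 61.1% of all genes that passed (29.9% lower and 31.2% higher).

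Marker genes of cells other than macrophages also differed between groups. The summed level of 12 neutrophil markers was 348 to 374 CPM in untreated WT cells, 673 to 774 in WT control medium, 312 to 317 in KO control medium and 852 to 853 after Poly(I:C). Csf3r, a growth factor receptor gene, was the highest at up to 596 CPM. It went from 127 and 148 CPM in untreated WT to 412 and 475 in WT control medium. Mmp8 was at 200 and 188 CPM and then at 176 and 185. Of the 10 tested, 6 were called higher in WT control medium and 4 did not pass, beside 32.8% of all genes called higher. Stromal and endothelial markers (7 listed) summed to 30.3 to 39.8 CPM in untreated WT cells, 54.8 to 70.9 in WT control medium and 77.9 to 80.3 after Poly(I:C). In WT control medium 3 of the 7 were called higher and 4 did not pass. Kdr went from 1.85 and 1.85 CPM in untreated WT to 18.9 and 24.6 in WT control medium. Pecam1 was at 24.3 and 31.4 CPM and then at 20.1 and 26.2. The 5 B cell markers went the other way, at 46.1 to 52.8 CPM in untreated WT cells, 10.4 to 11.3 in WT control medium and 7.69 to 8.72 after Poly(I:C), nearly all of it Cd79b. Dendritic cell markers summed to at most 7.02 CPM, and the mast cell genes Cpa3, Mcpt8, Fcer1a and Tpsb2 and the T and NK cell genes Cd3e, Cd8a and Ncr1 were at 0 in every library. Their part in the results on the members was not tested.

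Glucose enters through transporters of the SLC2A (GLUT) family, and 3 genes of this family were members. Slc2a1 (GLUT1, ENSMUSG00000028645, chromosome 4: 119108711 to 119137983 in GRCm38) is the widely expressed carrier. It stood at 97.0 and 107.6 CPM in untreated WT, 90.4 and 78.2 in untreated KO, 627 and 683 in WT control medium, 121.7 and 117.9 in KO control medium, and 577 and 618 after Poly(I:C). The WT control medium and Poly(I:C) libraries lie far above all others. The rise was 2.68 (SE 0.09, 6.40-fold, adjusted p = 8.73e-09) in WT cells after the control medium and 0.51 (SE 0.09, adjusted p = 0.00385) in KO cells, and these responses differed by -2.17 (SE 0.13, adjusted p = 1.13e-06). After Poly(I:C) it was 2.83 (SE 0.09) against untreated KO cells.

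Slc2a6 (ENSMUSG00000036067, chromosome 2: 27021363 to 27027998), which encodes a transporter of the GLUT family found on lysosomal membranes, had the largest difference of any member. Its levels were 13.1 and 14.9 CPM in untreated WT, 14.3 and 11.6 in untreated KO, 353 and 453 in WT control medium, 25.9 and 24.7 in KO control medium, and 568 and 606 after Poly(I:C). The 5 groups fall in 3 tiers: untreated cells at the bottom, KO control medium above them without overlap, and the other 2 groups highest. The difference was 4.83 (SE 0.13, 28.4-fold, adjusted p = 2.36e-09) in WT cells after the control medium, 0.97 (SE 0.13, adjusted p = 0.00111) in KO cells after it, and 5.5 (SE 0.13, adjusted p = 6.42e-10) in KO cells after Poly(I:C). Slc2a3 (GLUT3), a high-affinity carrier, moved in the opposite direction, from 8.47 and 8.21 CPM in untreated WT to 4.18 and 3.999 in WT control medium and from 6.92 and 7.94 in untreated KO to 3.23 and 3.20 after Poly(I:C). It fell by 1.01 (SE 0.13, adjusted p = 8.27e-05) and by 1.18 (SE 0.13, adjusted p = 1.98e-05). In KO control medium, at 5.64 and 5.05 CPM, its fall of 0.47 (adjusted p = 0.0343) was lost without any 1 of the 4 libraries, with adjusted p from 0.0603 to 0.212.

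Per kb of exon, the summed reads of the 3 SLC2A members came 84.1% to 84.2% from Slc2a1 and 12.4% to 12.7% from Slc2a6 in untreated WT cells. In WT control medium Slc2a6 made up 38% to 42% of the sum, in KO control medium 18.3% to 18.5%, and after Poly(I:C) 51.6% to 51.7%, slightly above Slc2a1. These shares describe reads and not glucose uptake. They are taken within a library and do not depend on how libraries were scaled. They do depend on exon length, here that of all annotated exons of a gene. In CPM after Poly(I:C), Slc2a1 (577 and 618) stayed above Slc2a6 (568 and 606), so the order of these 2 genes there rests on the lengths.

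Lactate leaves through the SLC16A monocarboxylate transporters. Slc16a3 (MCT4), the exporter of highly glycolytic cells, was at 109.0 and 115.2 CPM in untreated WT, 103.9 and 87.9 in untreated KO, 317 and 367 in WT control medium, 79.1 and 76.96 in KO control medium, and 216 and 222 after Poly(I:C). It rose by 1.61 (SE 0.10) in WT cells after the control medium and by 1.19 (SE 0.10) in KO cells after Poly(I:C), while the KO control medium difference of -0.29 did not pass (adjusted p = 0.0582). Slc16a1 (MCT1), which carries lactate both ways, was at 11.8 and 11.045 CPM in untreated WT, 10.3 and 8.68 in untreated KO, 25.0 and 18.9 in WT control medium, 7.68 and 8.94 in KO control medium and 30.5 and 32.1 after Poly(I:C). Its rises were 0.92 (SE 0.15) in WT cells and 1.72 (SE 0.15) after Poly(I:C). Within libraries, Slc16a3 per kb was 10.5 and 16.2 times Slc16a1 in WT control medium and 5.89 and 5.76 times after Poly(I:C), against 7.67 to 8.68 times in the 4 untreated libraries.

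**Figure D2:**
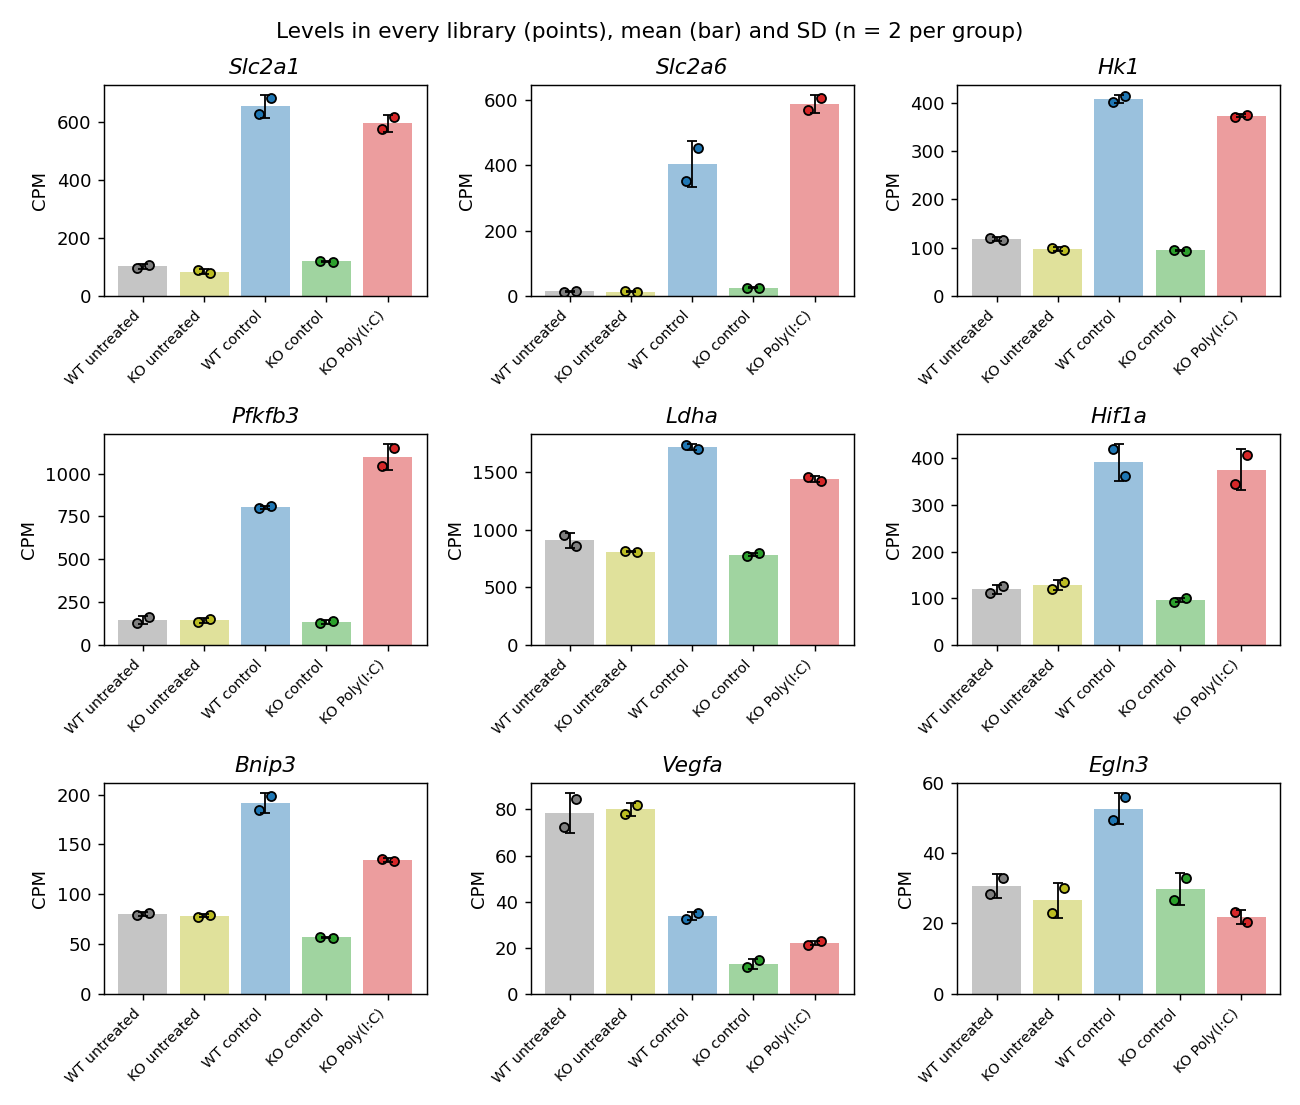
Levels in CPM with TMM scaling (linear axes from 0) of 9 members in each library; bars are group means, error bars the SD of 2 libraries, points the libraries. Slc2a1, Slc2a6, Hk1, Pfkfb3, Ldha, Hif1a and Bnip3 are high in WT control medium and after Poly(I:C), Vegfa is lowest in KO control medium at 11.4 and 14.5 CPM, and Egln3 is highest in WT control medium, at 49.4 and 55.8 CPM.

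Hexokinases trap glucose in the cell as glucose 6-phosphate. Hk1, a form that can bind mitochondria, was at 120.5 and 115.6 CPM in untreated WT, 100.2 and 95.1 in untreated KO, 402 and 414 in WT control medium, 95.5 and 93.1 in KO control medium, and 371 and 375 after Poly(I:C). Hk2, the inducible form, read 104.3 and 109.2 CPM in untreated WT, 99.8 and 96.2 in untreated KO, 314 and 292 in WT control medium, 116.0 and 122.5 in KO control medium and 276 and 298 after Poly(I:C). In both genes the WT control medium and Poly(I:C) libraries were the highest 4, with no overlap with the other 6. Hk1 rose by 1.79 (SE 0.06, adjusted p = 1.14e-08) and Hk2 by 1.504 (SE 0.07, adjusted p = 6.85e-08) in WT cells after the control medium. In KO cells Hk1 differed by -0.05 after the control medium (95% interval from -0.19 to 0.09). The small rise of Hk2 there, 0.28 (adjusted p = 0.0221), was lost without any 1 of the 4 libraries, with adjusted p from 0.0636 to 0.162.

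Hk3, a hexokinase typical of myeloid cells, was the most abundant of the 3 per kb and differed in its order. Its levels were 328 and 345 CPM in untreated WT, 293 and 258 in untreated KO, 557 and 681 in WT control medium, 236 and 219.6 in KO control medium, and 943 and 991 after Poly(I:C). The Poly(I:C) libraries lie above both WT control medium libraries. The Poly(I:C) response, 1.81, exceeded the WT control medium response, 0.87, by 0.94 (SE 0.14, adjusted p = 0.00569), in a comparison added after the data were seen. Hk3 made up 73.8% to 74.6% of the hexokinase sum per kb in untreated WT cells and 60.3% to 65.5% in WT control medium. In KO cells it made up 72% to 73.7% when untreated, 65.5% to 67.6% in control medium and 74.1% after Poly(I:C).

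Glucose-6-phosphate isomerase, encoded by Gpi1, did not follow the other enzymes. It was at 666 and 668 CPM in untreated WT, 637 and 666.5 in untreated KO, 629.7 and 629 in WT control medium, 577 and 601 in KO control medium and 495 and 493 after Poly(I:C). The libraries after Poly(I:C) were the lowest, and Gpi1 fell there by 0.40 (SE 0.06, adjusted p = 0.000247) against untreated KO cells, whereas its difference in WT cells after the control medium was -0.08 (95% interval from -0.22 to 0.06).

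Phosphofructokinase commits sugar to glycolysis and has 3 isoforms. Pfkl, the liver type, was at 123.0 and 124.9 CPM in untreated WT, 120.0 and 103.2 in untreated KO, 244 and 265 in WT control medium, 102.9 and 102.9 in KO control medium and 179 and 184 after Poly(I:C). Pfkp, the platelet type, was at 140.1 and 113.2 CPM in untreated WT, 102.6 and 108.7 in untreated KO, 193 and 196 in WT control medium, 94.7 and 95.5 in KO control medium and 223 and 232 after Poly(I:C). Pfkm, the muscle type, went down, from 18.8 and 19.5 CPM in untreated WT to 7.61 and 7.79 in WT control medium and from 21.2 and 22.0 in untreated KO to 12.9 and 11.9 in KO control medium and 6.40 and 6.73 after Poly(I:C). Thus each treated group lay below its untreated group for Pfkm, and KO control medium lay between.

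The difference in WT cells after the control medium was 1.04 (SE 0.08) for Pfkl, 0.63 (SE 0.09; 0.10 with totals alone, which did not pass) for Pfkp and -1.31 (SE 0.10, adjusted p = 1.58e-06) for Pfkm, and each passed. Against untreated KO cells Poly(I:C) gave 0.71 for Pfkl, 1.11 for Pfkp and -1.70 for Pfkm, which all passed, but with libraries scaled by totals alone the Pfkl value was -0.06, 0.71 above the median of all genes. In KO control medium Pfkm fell by 0.80 (adjusted p = 0.000633), while Pfkl (-0.11, 95% interval from -0.30 to 0.07) and Pfkp (-0.15, 95% interval from -0.36 to 0.06) did not pass. Within libraries, Pfkl per kb was 3.27 and 3.20 times Pfkm in untreated WT cells and 16.1 and 17.0 times in WT control medium, and 14.0 and 13.7 times after Poly(I:C). Pfkm shares its locus with the antisense gene Senp1, which was at 22.1 CPM in untreated WT and 33.0 in WT control medium, and Pfkp with Pitrm1, at 54.5 and 65.1 CPM. How the authors' counting treated strand is not stated, so reads of these pairs cannot be told apart with certainty.

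The enzymes from aldolase to lactate dehydrogenase include the members with the highest levels per kb, and 8 of them moved by less than 2-fold. In WT cells after the control medium Tpi1, Gapdh, Pgk1, Pgam1, Eno1, Pkm and Aldoa were higher by 0.32 (Aldoa) to 0.76 (Pgk1), and Ldha by 0.93. Scaled by totals alone, Aldoa and Pgam1 turned to -0.21 and -0.08, and Tpi1, Gapdh, Eno1 and Pkm lay between 0.0026 and 0.084 and no longer passed. All genes shifted under that setting, and against the median of all genes these 6 were 0.31 (Aldoa) to 0.61 (Tpi1) higher. After Poly(I:C), against untreated KO cells, the 8 genes were higher by 0.29 (Aldoa) to 0.83 (Ldha) with TMM scaling, but with totals alone all except Ldha were below 0. Against the median of all genes under that setting (-0.77), these 7 were 0.29 (Aldoa) to 0.75 (Pgk1) higher.

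Gapdh, the textbook reference gene, read 2788 and 2808 CPM in untreated WT, 2606 and 2637 in untreated KO, 4052 and 4043 in WT control medium, 2529 and 2646 in KO control medium and 3449 and 3627 after Poly(I:C). The KO control medium libraries spanned the untreated KO ones, and the WT control medium and Poly(I:C) libraries were the highest 4 (0.53, SE 0.08, adjusted p = 0.000171 in WT cells, but 0.0056 with totals alone). Pkm, the last ATP-forming step, read 2257 and 2088 CPM in untreated WT, 2030 and 2004 in untreated KO, 3204 and 3067 in WT control medium, 2184 and 2165 in KO control medium and 2895 and 2982 after Poly(I:C). Pgk1, which makes the first ATP of the pathway, read 961 and 881 CPM in untreated WT, 873 and 927 in untreated KO, 1600.4 and 1517 in WT control medium, 808 and 824 in KO control medium and 1516.5 and 1504 after Poly(I:C). Pgk1 kept its rise of 0.76 in WT cells after the control medium under scaling by totals alone, at 0.23.

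Lactate dehydrogenase reduces pyruvate to lactate, and its subunits diverged. Ldha was at 954 and 863 CPM in untreated WT, 813 and 810.1 in untreated KO, 1741 and 1705 in WT control medium, 775.5 and 795 in KO control medium and 1458.5 and 1425 after Poly(I:C). Ldhb, the heart subunit, was low, at 6.65 and 7.29 CPM in untreated WT, 7.54 and 6.48 in untreated KO, 4.35 and 4.74 in WT control medium, 6.73 and 6.41 in KO control medium and 5.08 and 5.02 after Poly(I:C). The 4 WT control medium and Poly(I:C) libraries hold the highest Ldha and the lowest Ldhb values. Ldha rose by 0.93 (SE 0.07, adjusted p = 2.05e-06) in WT cells and by 0.83 after Poly(I:C), the latter 0.06 with totals alone, which did not pass. Ldhb fell by 0.61 (SE 0.13, adjusted p = 0.00242) in WT cells after the control medium. Its fall against untreated KO cells after Poly(I:C), 0.46 (adjusted p = 0.00986), was lost without the first untreated KO library (adjusted p = 0.0842). Aldoc, the minor aldolase gene, also fell, by 0.51 in WT cells and by 0.58 after Poly(I:C), and its fall of 0.43 in KO control medium was lost without any 1 of the 4 libraries, with adjusted p from 0.0652 to 0.105.

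The bifunctional PFKFB enzymes make and break fructose 2,6-bisphosphate, the strongest activator of phosphofructokinase. Pfkfb3, the isoform with high kinase activity, was at 129.1 and 163.9 CPM in untreated WT, 134.4 and 153.2 in untreated KO, 797 and 809 in WT control medium, 126.2 and 140.9 in KO control medium, and 1043 and 1152 after Poly(I:C). All 4 libraries of WT control medium and Poly(I:C) exceeded the other 6 severalfold. It rose by 2.46 (SE 0.12, 5.52-fold, adjusted p = 6.02e-08) in WT cells after the control medium and by 2.93 (SE 0.12, 7.63-fold, adjusted p = 1.02e-08) after Poly(I:C), and differed by -0.11 in KO cells after the control medium (95% interval from -0.37 to 0.15). Pfkfb4 went the other way, from 29.9 and 30.7 CPM in untreated WT to 19.9 and 20.9 in WT control medium and from 32.0 and 33.7 in untreated KO to 14.4 and 16.3 after Poly(I:C), with 31.2 and 31.2 in KO control medium. Its falls were 0.57 (SE 0.09) and 1.09 (SE 0.09). Within each library the ratio of Pfkfb3 to Pfkfb4 per kb was 2.78 and 3.45 in untreated WT, 25.8 and 25.0 in WT control medium, 2.61 and 2.91 in KO control medium and 46.7 and 45.5 after Poly(I:C).

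**Figure D3:**
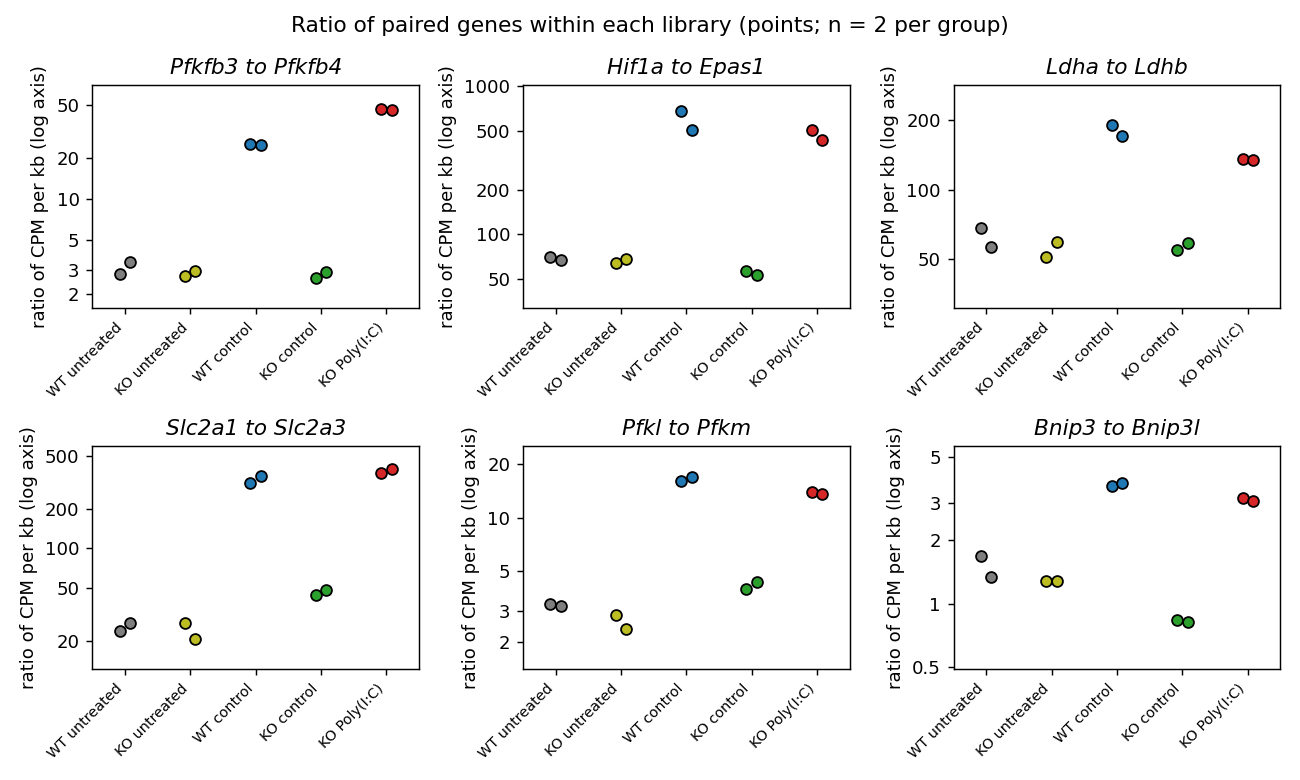
Ratios per kb of exon between 6 pairs of related members within each library (points, 2 per group; log axes, a scale that does not depend on library scaling). For all 6 pairs the WT control medium and Poly(I:C) libraries lie above the untreated and KO control medium libraries, for example 25.0 to 46.7 against 2.61 to 3.45 for Pfkfb3 to Pfkfb4.

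Among the HIF subunits, Hif1a, the oxygen-labile alpha subunit of HIF-1, was at 112.1 and 126.3 CPM in untreated WT, 120.3 and 135.2 in untreated KO, 419.6 and 363 in WT control medium, 92.9 and 99.6 in KO control medium and 344 and 407 after Poly(I:C). It rose by 1.71 (SE 0.11, adjusted p = 4.67e-07) in WT cells after the control medium and by 1.55 (SE 0.11, adjusted p = 6.06e-07) after Poly(I:C). In KO control medium both libraries were below the untreated ones, and the fall of 0.41 (adjusted p = 0.0274) was lost without the second untreated KO library or either KO control medium library, with adjusted p from 0.0867 to 0.168. Epas1, the alpha subunit of HIF-2, was barely expressed, at 1.51 and 1.78 CPM in untreated WT, 1.80 and 1.88 in untreated KO, 0.59 and 0.68 in WT control medium, 1.55 and 1.78 in KO control medium and 0.65 and 0.90 after Poly(I:C). It fell by 1.25 (SE 0.22, adjusted p = 0.00066) in WT cells and by 1.17 (SE 0.22, adjusted p = 0.000852) after Poly(I:C). The ratio of Hif1a to Epas1 per kb went from 70.6 and 67.2 in untreated WT to 680.0 and 505 in WT control medium, and was 505 and 430.0 after Poly(I:C). These are transcript levels, and HIF is chiefly controlled as a protein.

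The genes that hold HIF in check split by treatment. Vhl, the recognition subunit of the ligase, was at 16.1 and 18.96 CPM in untreated WT, 18.7 and 20.3 in untreated KO, 38.5 and 39.1 in WT control medium, 21.8 and 21.8 in KO control medium and 31.6 and 32.0 after Poly(I:C), and rose by 1.14 (SE 0.10) in WT cells and by 0.70 after Poly(I:C), the latter at -0.07 with totals alone, 0.71 above the median of all genes. The prolyl hydroxylase genes Egln1 and Egln3, both also HIF targets, passed as higher in WT control medium and not after Poly(I:C). Egln1 was at 47.8 and 43.8 CPM in untreated WT, 71.9 and 76.0 in WT control medium, 42.0 and 43.1 in KO control medium, and 46.1 and 46.6 after Poly(I:C), close to the 46.6 and 42.7 of untreated KO. Egln3 was at 28.3 and 33.0 CPM in untreated WT, 49.4 and 55.8 in WT control medium, 23.1 and 29.9 in untreated KO, 26.6 and 33.0 in KO control medium, and 23.2 and 20.3 after Poly(I:C). The WT rises were 0.69 (SE 0.08, adjusted p = 2.96e-05) for Egln1 and 0.78 (SE 0.15, adjusted p = 0.00116) for Egln3, which became 0.16 and 0.26 and did not pass with totals alone. The Poly(I:C) response was below the WT control medium response by 0.64 (SE 0.11, adjusted p = 0.0089) for Egln1 and by 1.05 (SE 0.21, adjusted p = 0.0158) for Egln3, in the comparison added after the data were seen. For Egln3 that call was lost without the second untreated KO or the second Poly(I:C) library (adjusted p from 0.0502 to 0.0651).

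Upstream sequences of HIF targets can be searched for the hypoxia response element, whose core reads ACGTG or GCGTG. They were at hand for all HIF targets except Bnip3l and Ndrg1. The windows below are the 250 bases before the start of transcription in RefSeq's table for GRCm38.p6, 5′ to 3′ on the gene's strand, and capitals mark each ACGTG or GCGTG on either strand (CACGT and CACGC when read on the printed strand), with overlapping matches joined. They are shown for the 3 HIF targets that rose most in WT cells after the control medium, Adm (chr7:110627407-110627656, plus strand), Bnip3 (chr7:138909507-138909756, minus strand) and Ankrd37 (chr8:45999851-46000100, minus strand), and for Vegfa (chr17:46032378-46032627, minus strand), which fell.
Adm: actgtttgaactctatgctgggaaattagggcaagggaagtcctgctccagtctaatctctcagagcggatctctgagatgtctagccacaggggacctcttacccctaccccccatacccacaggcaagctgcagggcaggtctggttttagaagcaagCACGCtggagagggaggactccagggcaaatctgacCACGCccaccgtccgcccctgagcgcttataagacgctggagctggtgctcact
Bnip3: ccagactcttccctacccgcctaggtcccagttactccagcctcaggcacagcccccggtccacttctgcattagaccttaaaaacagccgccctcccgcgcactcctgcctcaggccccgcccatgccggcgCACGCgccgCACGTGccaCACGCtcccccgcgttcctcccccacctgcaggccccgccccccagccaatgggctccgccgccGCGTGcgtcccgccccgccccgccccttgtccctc
Ankrd37: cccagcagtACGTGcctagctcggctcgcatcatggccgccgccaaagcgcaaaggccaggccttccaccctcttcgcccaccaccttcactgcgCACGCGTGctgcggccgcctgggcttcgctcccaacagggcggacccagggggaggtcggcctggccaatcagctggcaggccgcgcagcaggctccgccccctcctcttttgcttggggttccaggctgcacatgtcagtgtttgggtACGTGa
Vegfa: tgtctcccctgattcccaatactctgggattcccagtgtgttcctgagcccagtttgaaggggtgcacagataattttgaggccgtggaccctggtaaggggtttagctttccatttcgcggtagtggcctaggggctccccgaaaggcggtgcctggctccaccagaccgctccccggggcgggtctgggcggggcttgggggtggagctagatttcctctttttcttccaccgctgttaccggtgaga
The windows hold 2 matches in Adm, 5 in Bnip3, 4 in Ankrd37 and 0 in the Vegfa window shown, where no match says only that these letters are not in it. A second RefSeq start of Vegfa, with its window at chr17:46025164-46025413, has 2 matches. That window lies inside the annotated gene (46016993 to 46032369), so its letters are not upstream of the gene as a whole. The printed Vegfa window has 1 match to the NF-kB consensus.

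Over all members, 34 were found in the table with 47 windows, and those of Slc2a3, Epas1, Bnip3l and Ndrg1 were not. A match to ACGTG or GCGTG stood in 39 of the 47 windows (83.0%), against 38.6% of the 32851 windows of all genes. By gene, 31 of the 34 members had a match in at least 1 window, all but Gpi1, Tpi1 and Vhl. The share of all genes with a match in any window was not counted, and 38.6% of windows cannot stand in for it. The E-box CACGTG, which contains ACGTG on both strands, stood in 12.8% of the member windows and in 6.02% of all windows, and the NF-kB consensus in 4.26% and 3.9%. Members that fell held matches too: Pfkm, Ldhb, Pfkfb4 and Aldoc each had 1 or more. All windows were taken as they are, without matching for base composition, and both cores contain CG, so the excess was not set apart from a difference in CG content. Overlapping windows of 1 gene, as in Aldoa and Eno1, also count the same match again. A match is a description of the letters and not a site of binding.

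Adm (adrenomedullin, a vasodilator peptide) was almost absent from untreated cells, at 0.22 and 0.59 CPM in WT and 0.29 and 0.45 in KO. It read 8.33 and 8.32 CPM in WT control medium, 0.89 and 1.17 in KO control medium and 4.26 and 3.31 after Poly(I:C). WT control medium was highest and Poly(I:C) next, without overlap. The rise was 4.16 (SE 0.35, adjusted p = 3.07e-06) in WT cells and 3.05 (SE 0.35, adjusted p = 2.12e-05) after Poly(I:C), on a scale that understates changes at such low levels. The rise of 1.26 in KO control medium (adjusted p = 0.0298) was lost without any 1 of the 4 libraries, with adjusted p from 0.0573 to 0.169.

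Bnip3 and Bnip3l encode related receptors for the removal of mitochondria, and they did not move together. Bnip3 was at 79.0 and 81.3 CPM in untreated WT, 77.5 and 79.4 in untreated KO, 185 and 199 in WT control medium, 57.0 and 56.2 in KO control medium and 135.6 and 133.0 after Poly(I:C). It rose by 1.26 (SE 0.07, adjusted p = 1.21e-07) in WT cells, fell by 0.47 (SE 0.07, adjusted p = 0.00121) in KO cells after the control medium, and rose by 0.78 after Poly(I:C), which was 0.0043 and did not pass with totals alone. Bnip3l was at 80.1 and 103.6 CPM in untreated WT and 86.9 and 90.2 in WT control medium, within the spread of the untreated pair, and its difference was -0.04 (95% interval from -0.27 to 0.19). It stood at 103.3 and 105.3 CPM in untreated KO, 116.4 and 117.0 in KO control medium, and 72.4 and 73.8 after Poly(I:C), where it fell by 0.51 (SE 0.10, adjusted p = 0.00127).

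Vegfa was the only 1 of the 9 HIF targets called lower in WT control medium. In KO control medium 4 of the 9 were called lower, Vegfa among them. After Poly(I:C), against untreated KO cells, 3 of the 9 were, again with Vegfa. Vegfa levels were 72.4 and 84.7 CPM in untreated WT, 78.1 and 82.0 in untreated KO, 32.6 and 35.1 in WT control medium, 11.4 and 14.5 in KO control medium, and 21.3 and 22.7 after Poly(I:C). All 6 treated libraries lie below all 4 untreated ones, and KO control medium is the lowest. Vegfa fell by 1.21 (SE 0.12, adjusted p = 1.22e-05) in WT cells and by 2.63 (SE 0.12, adjusted p = 6.26e-06) in KO cells after the control medium, and these responses differed by -1.42 (SE 0.17, adjusted p = 0.00011). The KO control medium fall was the largest of any member in that comparison.

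Ero1a (Ero1l in older annotations), an oxidase for disulfide bonds in the endoplasmic reticulum, also split the 2 responses to the control medium. It was at 194 and 229 CPM in untreated WT, 179 and 197 in untreated KO, 368 and 367 in WT control medium, 102.3 and 101.1 in KO control medium and 239 and 239.9 after Poly(I:C). It rose by 0.80 (SE 0.08, adjusted p = 1.71e-05) in WT cells and fell by 0.88 (SE 0.08, adjusted p = 0.000149) in KO cells. Its rise of 0.35 after Poly(I:C) was -0.42 with totals alone, which is 0.35 above the median of all genes under that setting (-0.77).

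The collagen prolyl hydroxylase subunits P4ha1 and P4ha2 diverged after Poly(I:C). P4ha1 was at 186 and 174 CPM in untreated WT, 168 and 175.5 in untreated KO, 326 and 369.7 in WT control medium, 137.4 and 153.1 in KO control medium and 426 and 457 after Poly(I:C). P4ha2 was at 19.8 and 19.7 CPM in untreated WT, 19.9 and 22.0 in untreated KO, 29.5 and 25.2 in WT control medium, 15.3 and 16.4 in KO control medium and 13.8 and 13.6 after Poly(I:C). P4ha1 was thus highest after Poly(I:C), and P4ha2 lowest. In WT control medium they rose by 0.94 and 0.46, the latter at -0.06 with totals alone, 0.46 above the median of all genes. After Poly(I:C) P4ha1 rose by 1.36 (SE 0.09, adjusted p = 2.84e-07) and P4ha2 fell by 0.61 (SE 0.10, adjusted p = 0.000402), and for P4ha2 the Poly(I:C) response was below the WT control medium response by 1.07 (SE 0.15, adjusted p = 0.00335).

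Ndrg1, a stress-responsive gene, was higher in all 3 treated groups. It was at 465 and 462 CPM in untreated WT, 411 and 441 in untreated KO, 685 and 684 in WT control medium, 796 and 791 in KO control medium and 968 and 974 after Poly(I:C), with no overlap between treated and untreated libraries. The rises were 0.56 (SE 0.06) in WT cells, 0.04 with totals alone, and 0.90 (SE 0.06, adjusted p = 3.47e-05) in KO cells after the control medium. Poly(I:C) gave 1.19 (SE 0.06, adjusted p = 9.11e-08). Ndrg1 was 0.21 higher in KO than in WT control medium (adjusted p = 0.0158), a call that was lost without any 1 of the 4 libraries, with adjusted p from 0.0582 to 0.08. Ankrd37, an ankyrin repeat gene, was at 6.68 and 6.03 CPM in untreated WT, 15.3 and 13.4 in WT control medium, 5.06 and 5.57 in untreated KO, 6.82 and 7.64 in KO control medium and 7.55 and 6.87 after Poly(I:C). It rose by 1.16 (SE 0.13, adjusted p = 2.85e-05) in WT cells, while its rise of 0.43 after Poly(I:C) was lost without the first untreated KO or the first Poly(I:C) library (adjusted p from 0.077 to 0.0805) and was -0.33 with totals alone, 0.45 above the median of all genes. Its antisense neighbour Ufsp2 fell by 0.79 in WT cells (adjusted p = 0.000273), from 65.4 to 37.9 CPM.

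**Figure D4:**
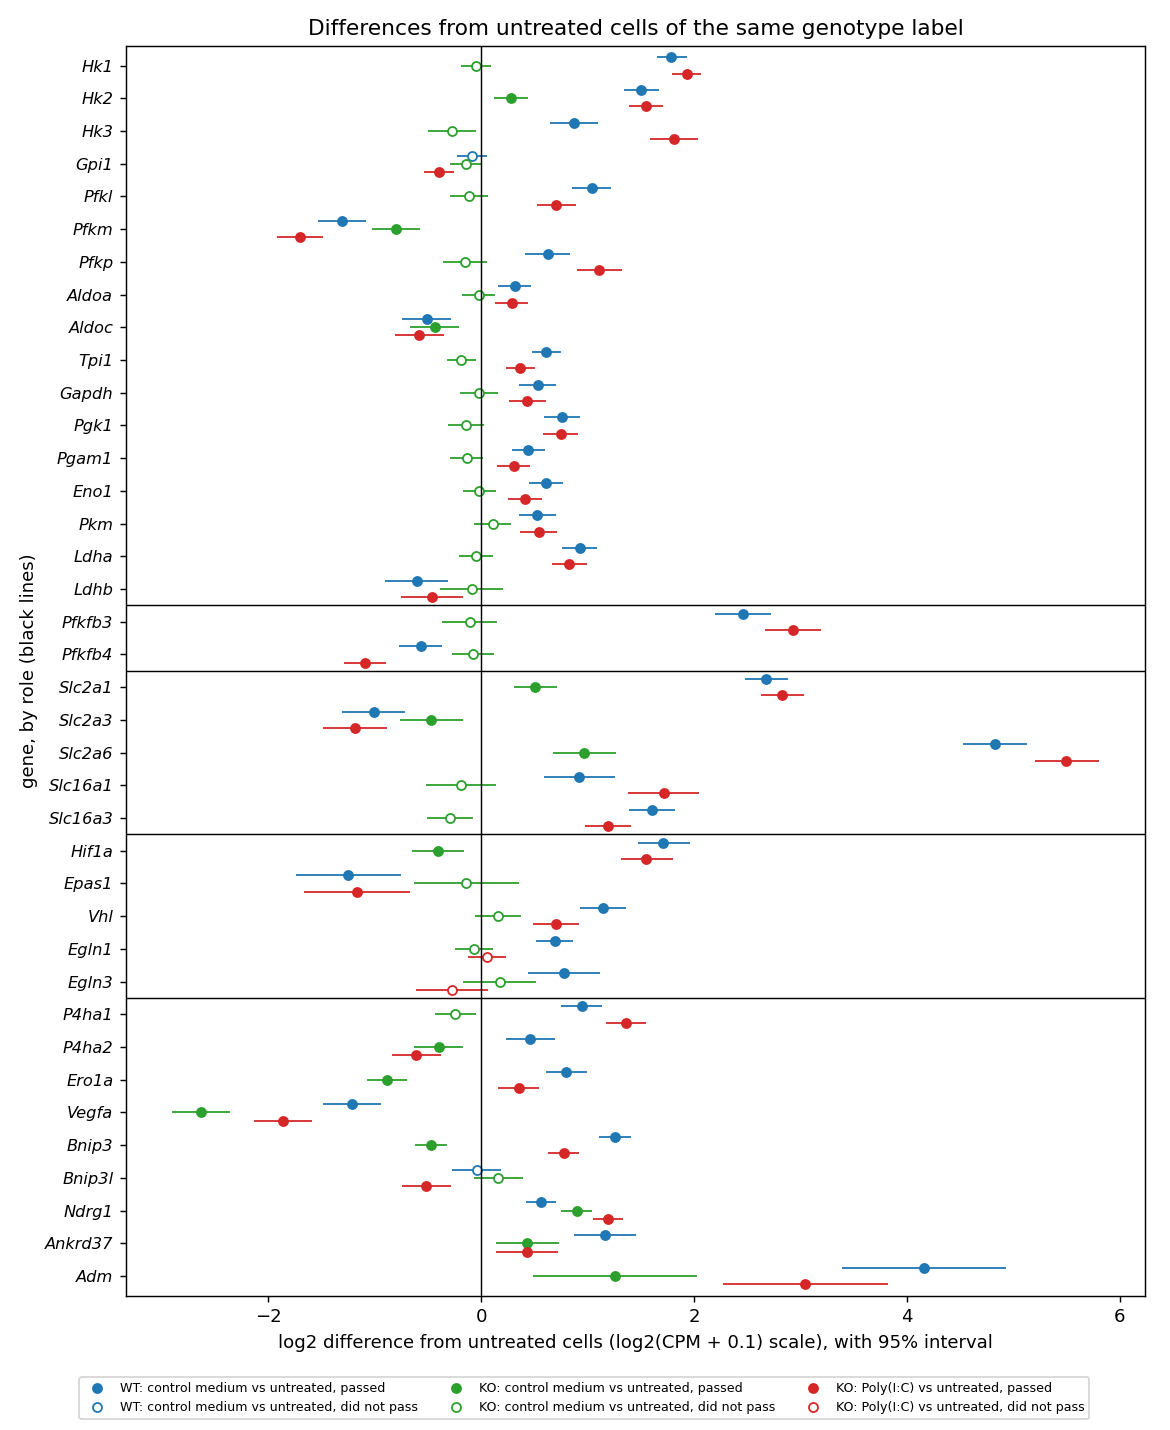
Log2 difference of each member (rows, by role) from untreated cells of the same label, with the 95% interval and TMM scaling, for WT control medium (blue), KO control medium (green) and KO Poly(I:C) (red); filled points passed at an adjusted p under 0.05. The blue and red points lie together on the right for most genes and the green points nearer to 0, with Vegfa at -2.63, Adm at 1.26 and Slc2a6 at 0.97 farthest out; small blue and red rises such as Aldoa or Pgam1 turn below 0 with totals alone.

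**Figure D5:**
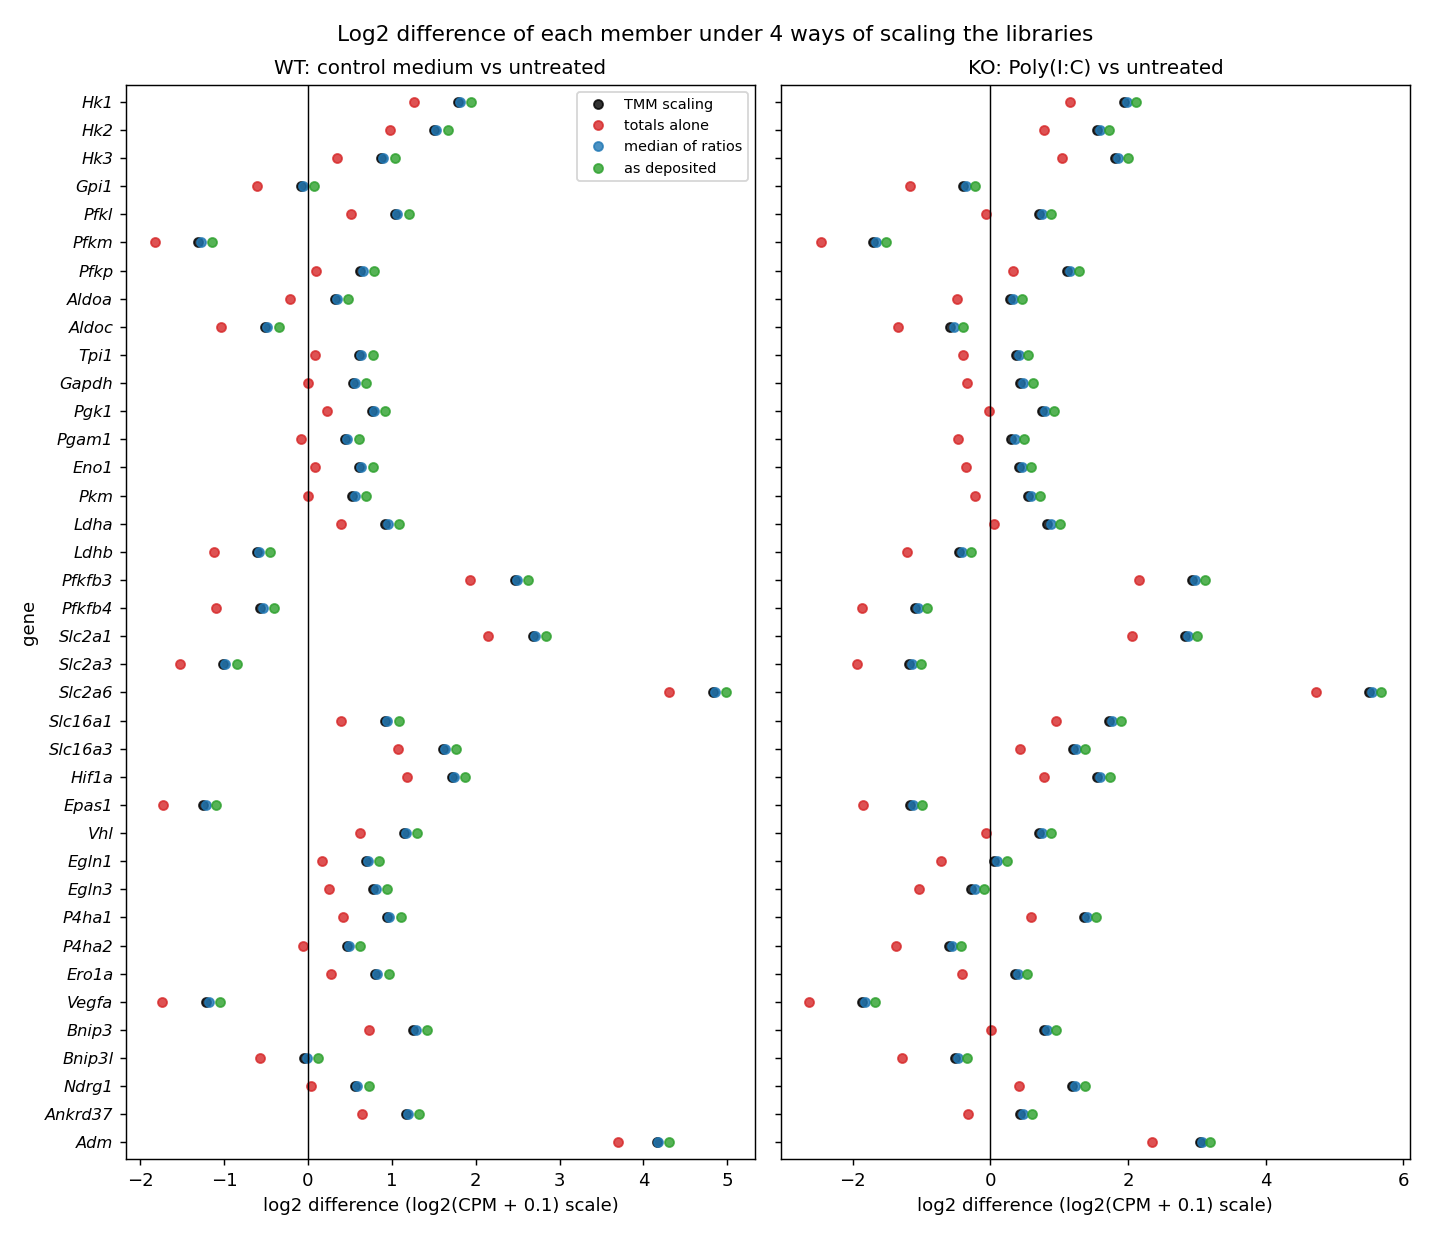
The same differences for WT control medium (left) and KO Poly(I:C) (right), each computed with TMM scaling, totals alone, median-of-ratios scaling and the values as deposited. Totals alone moves all members to the left, by about the shift in the median of all genes (-0.52 and -0.77), so that Aldoa, Pgam1 and P4ha2 on the left and 12 members on the right change sign, while Slc2a6, Slc2a1, Pfkfb3, Adm, Hk1, Hk2 and Hif1a stay above 0 in both panels.

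The comparison of the Poly(I:C) response in KO cells with the control medium response in WT cells was added after the data were seen. It left 4 members with a larger value after Poly(I:C) (Hk3, Pfkp, Slc16a1 and Ndrg1) and 8 with a smaller one, beside 9.83% of all genes (6.2% larger and 3.63% smaller). Of the 8, 7 were HIF pathway genes (Egln1, Egln3, P4ha2, Ero1a, Vegfa, Bnip3 and Ankrd37) and 1 a glycolysis gene (Pfkfb4), out of 14 and 24 genes. The median over HIF pathway genes was -0.48 and that over glycolysis genes -0.05, against 0.00 for all genes. Of these 12, 5 (Hk3, Ndrg1, Egln1, P4ha2 and Bnip3) passed whichever library was left out. Leaving out 1 library gave 2 to 4 members with a larger and 3 to 10 with a smaller response, the lowest of these last counts without the second untreated KO library. Scaled by totals alone, 18 had a smaller response. Poly(I:C) cells and control medium cells also differ in label and perhaps in medium, which cannot be told apart here.

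Other genes of these pathways were counted from longer lists. Of 39 further glycolysis genes listed, 27 were tested, and in WT cells after the control medium 8 were higher and 15 lower, beside 32.8% and 33.1% of all genes. After Poly(I:C), against KO control medium, 7 were higher and 14 lower, beside 33.1% and 36.3%. The median differences were -0.44 and -0.56, against -0.01 and -0.05 for all genes. Differences in this list ranged from -2.91 to 2.51 in WT cells and from -2.78 to 3.06 after Poly(I:C). The lowest in each comparison was a pyruvate dehydrogenase kinase gene, whose product restrains the entry of pyruvate into mitochondria. Pdk4 fell by 2.91 (SE 0.41) in WT cells, from 0.76 to 0.015 CPM. That size depends on the 0.1 added before the logarithm. Pdk2 fell by 2.78 (SE 0.34) after Poly(I:C), from 4.19 to 0.57 CPM. Of 40 further HIF pathway genes, 37 were tested, with 18 higher and 10 lower in WT control medium and 15 higher and 13 lower after Poly(I:C) against KO control medium, beside the same shares of all genes. The medians were 0.37 and 0.13. In KO cells after the control medium, 1 further glycolysis gene was higher and 5 lower, and 5 further HIF pathway genes were higher and 5 lower, beside 10.9% and 9.06% of all genes.

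Nos2, the inducible nitric oxide synthase of activated macrophages, had the largest rise of the further HIF pathway genes, from 3.45 ± 0.40 CPM (SD, n = 2) in untreated WT to 949.8 ± 172 in WT control medium, and from 3.09 ± 0.76 in KO control medium to 1833 ± 343 after Poly(I:C). Its differences were 8.06 (SE 0.19, adjusted p = 7.28e-10) and 9.17 (SE 0.19, adjusted p = 3.13e-10). The activin subunit gene Inhba rose by 3.78 (SE 0.35) and 3.82 (SE 0.35). The lowest were Zfp395, at -3.31 (SE 0.18) and -5.18 (SE 0.18), and Ppfia4, at -3.20 (SE 0.23) and -3.10 (SE 0.23). In untreated cells 0 genes of either list differed between the labels in limma, with 2 and 5 at an unadjusted p under 0.05.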

How the data were processed

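RNA of 10 libraries (5 groups of 2) had been made into 2 tables of 45318 genes or fewer. Per the submitters' processing notes the tools included RSEM 1.2.12, STAR 2.4.0d, Trim Galore 0.2.8 and DESeq2, whose roles and settings, like the build, are not stated. The authors deposited a whole-number table whose values are a signal, reads multiplied by 1 factor per library (0.687 to 1.90) and rounded, as the gaps between its values show, so no count model was used. The authors also deposited rlog values on a log2 scale, used as an alternative.

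Values were divided by library total and TMM factor (own implementation, trims of 30% and 5%) to CPM. Genes were tested if 2 or more libraries reached a value of 10. limma 3.58.1 in R 4.3.3 was fitted with a trend to log2(CPM + 0.1) of all 10 libraries, with 5 coefficients, 5 residual and 4.81 prior degrees of freedom, and Benjamini-Hochberg adjustment over all genes tested. The procedure was tested on simulated data. There were 7 comparisons, and 1 was added after the data were seen. Alternatives changed the scaling, pseudocount, filter, trend, groups fitted, replicate block and libraries.

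All 38 members are named, and of other pathway genes at most the 3 highest and 3 lowest called. Members and lists were chosen with earlier results of these data known. Gene positions are from GENCODE M21 (GRCm38). Near-identical copies were sought with minimap2 2.31 at 95% identity over 200 bases, and the copies of Gapdh summed to at most 1.63% of its signal.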

Additional observations from a re-analysis of the deposited data

Results flagged for a closer look

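For 35 of the 38 members, the response to the control medium differed between cells labelled KO and WT, as tested by the interaction term in limma across 4 groups of 2 libraries (45.9% of all genes tested also passed). The values are the KO response minus the WT response on the log2 scale. In the transporters and PFK-2 regulators it was -3.86 for Slc2a6, -2.17 for Slc2a1, -1.90 for Slc16a3, -1.11 for Slc16a1, 0.54 for Slc2a3, -2.57 for Pfkfb3 and 0.49 for Pfkfb4.

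For the hexokinases and phosphofructokinases the difference was -1.84 for Hk1, -1.22 for Hk2, -1.15 for Hk3, -1.15 for Pfkl, -0.78 for Pfkp and 0.51 for Pfkm. Further down the pathway it was -0.34 for Aldoa, -0.80 for Tpi1, -0.55 for Gapdh, -0.90 for Pgk1, -0.58 for Pgam1, -0.62 for Eno1, -0.42 for Pkm, -0.97 for Ldha and 0.52 for Ldhb. In the HIF pathway it was -2.12 for Hif1a, 1.11 for Epas1, -0.98 for Vhl, -0.76 for Egln1 and -0.61 for Egln3. Among the HIF targets it was -2.90 for Adm, -1.73 for Bnip3, -1.68 for Ero1a, -1.42 for Vegfa, -1.19 for P4ha1, -0.86 for P4ha2, -0.73 for Ankrd37 and 0.34 for Ndrg1.

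The calls of Ldhb, Slc2a3, Egln3, Aldoa, Epas1, Ndrg1 and Pfkm were each lost without at least 1 library, with adjusted p of up to 0.157 (Ldhb), 0.13 (Slc2a3), 0.151 (Egln3), 0.0628 (Aldoa), 0.0571 (Epas1), 0.0505 (Ndrg1) and 0.0619 (Pfkm, without the first KO control medium library). With libraries scaled by totals alone the median of all genes was 0.52. Aldoa and Pkm were then at 0.15 and 0.07, which is -0.37 and -0.45 against that median. Under the same setting Gapdh, Pgam1, Eno1, Egln1, Egln3, Pfkp, P4ha2 and Ankrd37 kept a value below 0, from -0.38 (P4ha2) to -0.06 (Gapdh), and no longer passed.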

How the results depend on the processing

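With libraries scaled by totals alone, the members called higher became 18 (from 29) in WT control medium, 13 (from 26) after Poly(I:C) against untreated and 14 (from 26) against control medium, and those called lower 19 (from 10) and 19 (from 8) after Poly(I:C). The interaction then had 19 members below 0 (from 29), and the added comparison 2 higher and 18 lower (from 4 and 8). Under the same setting the sign turned, in WT control medium, for Aldoa (-0.21), P4ha2 (-0.062) and Pgam1 (-0.083). After Poly(I:C) against untreated cells it turned for Aldoa (-0.49), Ankrd37 (-0.33), Egln1 (-0.71), Eno1 (-0.36), Ero1a (-0.42), Gapdh (-0.34), Pfkl (-0.063), Pgam1 (-0.47), Pgk1 (-0.024), Pkm (-0.23), Tpi1 (-0.40) and Vhl (-0.065). Against control medium it turned for Aldoa (-0.42), Egln1 (-0.61), Eno1 (-0.30), Gapdh (-0.28), Ndrg1 (-0.44), Pgam1 (-0.29), Pkm (-0.30), Tpi1 (-0.18) and Vhl (-0.19). Between KO and WT control medium it turned for Aldoa (0.046) and Gpi1 (0.38), and in the interaction for Aldoa (0.15), Gpi1 (0.43) and Pkm (0.067). Over all genes, totals alone gave 2267 higher and 7689 lower in WT control medium, from 4326 and 4354. With the deposited values unscaled, 3 members were higher in KO than WT control medium (from 7), 1 was above 0 in the interaction (from 6), 5 were lower after Poly(I:C) against control medium (from 8) and 4 lower in the added comparison. In that comparison 2 were higher and 5 lower without a filter, without a trend, or with only the groups compared.

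Leaving out each library in turn, with the lone library of its group assumed to vary like the others, gave 3 to 5 members above and 27 to 29 below 0 in the interaction, 2 to 4 and 3 to 10 in the added comparison, 5 and 29 between KO and WT control medium, 3 higher and 4 to 6 lower in KO control medium, 26 and 6 to 7 after Poly(I:C) against control medium, 25 to 26 and 10 against untreated cells, 29 and 7 to 8 in WT control medium, and 0 between untreated cells.

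Groups share replicate numbers, which nothing in the labels ties to a culture or day, and with 2 libraries a group the correlations of their deviations (0.0126 to 0.315 over the 10 pairs of groups, highest between untreated and control medium cells of 1 label) do not settle a pairing. With the replicate block, the added comparison had 7 members higher (from 4) and 11 lower (from 8), KO control medium had 11 lower (from 8, with Slc16a3, Tpi1 and P4ha1 passing at adjusted p of 0.0457, 0.0333 and 0.0346), and genes called between untreated cells went from 11 higher and 11 lower to 29 and 74. With 2 libraries a group, small differences were often not detectable.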
